A study of Rattus norvegicus with 30 samples.

Results

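The comparison described here sets median nerve tissue collected 7 days after a delayed repair against healthy median nerve, gene by gene. Its members were chosen by their labels: the 5 libraries of delayed repair at day 7 and the 5 libraries of control nerve, 10 of the 30 libraries of the series. All animals were adult female wild-type Rattus norvegicus. The control nerves are labelled as untreated, at Day 0. For delayed repair, the median nerve was cut to leave an 8 mm gap, was left for 3 months, and was then repaired with a chitosan tube of 10 mm; chitosan is a polysaccharide derived from chitin. Regenerated tissue was taken from within the tube 7, 14 or 21 days later. In the immediate repair groups the same tube was fitted at the time of injury. Besides the 10 libraries above, the values below use immediate repair at day 7 (4 libraries) and delayed repair at day 14 (4 libraries) and day 21 (3 libraries).

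The control is a whole uninjured nerve and the day 7 sample is new tissue inside a tube, so the comparison spans injury, 3 months of delay, repair and regrowth together. A control nerve taken after the same 3 months was not analysed here. Replicates carry numbers in the labels, with no statement that they are separate animals, and no batch or date is given. The p-values therefore measure spread between libraries, which may be technical in part. That spread is estimated jointly over all 30 libraries of the series, and it was unequal between groups. These are bulk samples, in which fewer cells of a type and less RNA per cell cannot be told apart. The table identifies genes by Ensembl rat gene IDs. None of its 32545 IDs (0) matched the gene symbols used here, so genes are described as groups and by ID, and the markers of nerve cell types were not checked.

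As background, a peripheral nerve is a cable of axons, each accompanied by Schwann cells, which wrap the larger axons in myelin. After a cut, the part beyond the injury goes through Wallerian degeneration: axons fragment, Schwann cells stop making myelin and take on a repair state, and macrophages clear debris. In an empty tube, regrowth starts from a fibrin matrix that is invaded by fibroblasts, blood vessels, immune cells and Schwann cells, and axons follow. Schwann cells that stay without axons for months are known to lose part of their capacity to support regrowth, which is the setting that a delayed repair models.

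The 10 libraries held 12176007 to 17334752 counts each, with a median of 14858868.5. Delayed day 7 replicate 1 was the smallest and replicate 5 the largest of the 10. After removal of genes with few counts, 16015 genes were tested. Each was tested with edgeR's quasi-likelihood test, and a gene was called changed at a Benjamini-Hochberg adjusted p under 0.05.

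Most of the measured transcriptome of the day 7 tissue differed from that of healthy nerve. Of the 16015 genes, 10309 were called, which is 64.4% and is the background against which every count of genes below is read. Of these, 5044 were higher at day 7 (31.5% of genes tested) and 5265 were lower (32.9%). The rises and falls were nearly balanced in number, but the falls ran deeper: the median log2 fold change was 1.46 among the rises, with a median standard error of 0.24, and -1.71 among the falls, with a median standard error of 0.33. Over all genes tested the median was -0.01, and the rises and falls are read against it. The libraries were scaled (TMM factors) on the premise that most genes do not change. The median near 0 and the balance in number therefore follow partly from the scaling, and the depth of rises and falls is relative to it.

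Large changes were common in both directions. At least 2-fold rises numbered 3173, at least 4-fold rises 2026, at least 16-fold rises 887 and at least 64-fold rises 242. The falls of the same sizes numbered 3620, 2316, 933 and 421. Without delayed day 7 replicate 5, the library that stood apart from its group, the falls of at least 64-fold numbered 648, over 1.5 times as many, while the rises of that size numbered 228. No other single library left out moved either of these 2 counts by over 1.5 times.

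Of the genes that were not called, 5706 in number, 3300 (57.8%) had a 95% interval of the fold change that lay wholly within 2-fold of control in either direction. For each of these, taken singly, the interval left out a change of 2-fold or more. The intervals use the spread shared over all groups of the series. A gene unread in both groups gets an interval of 0 width and counts as within 2-fold, though nothing was measured. Such genes were not counted apart. For the others the spread was too wide for such a limit, and 119 of the genes not called had an estimate of at least 4-fold. Over all genes tested, the median distance from the estimate to the end of its 95% interval was 0.56 on the log2 scale.

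Calls were found at every level of expression. The genes were split into 5 classes of equal size by their mean level over the 10 libraries, on the scale of log2 CPM (the counts of a gene per 1e+06 counts of the effective library size). From the lowest to the highest class, 56.3%, 64.9%, 64.2%, 67.5% and 69.0% of genes were called. The share called higher was 27.3% in the lowest class and 39.0% in the highest, and the share called lower was 29.0% and 29.97%. In the class above the lowest, falls outnumbered rises, at 38.7% against 26.2%, and in the highest class rises outnumbered falls.

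The size of the change went the other way. The median absolute log2 fold change was 2.01 in the lowest class and 0.60 in the highest, and the median standard error was 0.76 and 0.15. Low genes thus had both larger estimated differences and less precise ones. Changes of at least 4-fold were nevertheless present among the most abundant genes, with 226 rises and 210 falls in the highest class, against 739 and 762 in the lowest. The classes come from the same libraries, so near absence in 1 group itself moves a gene to a lower class. The filter used all groups of the series, so a gene could pass through a group outside this comparison. Filtered on the compared groups alone, 1523 of the 3203 genes of the lowest class were kept. Of these, 22.4% were called higher and 38.9% lower.

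The change in gene numbers went with a change in what the libraries were made of. The genes called higher took 64.8%, 63.1%, 56.9%, 58.9% and 54.0% of all counts in day 7 replicates 1 to 5, and between 19.0% and 20.3% in the 5 control libraries. As group means this was 59.5% ± 4.39 (SD, n = 5) against 19.8% ± 0.534 (SD, n = 5). The genes called lower took 11.4%, 12.8%, 14.6%, 14.8% and 17.1% in the same 5 day 7 libraries and 53.8% to 55.5% in control, or 14.2% ± 2.14 against 54.5% ± 0.740 (SD, n = 5 each). Genes that were not called held a similar share in both groups, 23.8% to 28.4% at day 7 and 25.3% to 26.0% in control. Since the calls come from the same libraries, these shares describe the change and are no separate test of it.

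The genes with the largest changes accounted for a good part of this exchange. The 2026 genes called at least 4-fold higher went from 2.73% to 2.89% of control counts to 25.5% to 31.9% of day 7 counts. The 2316 genes called at least 4-fold lower went from 30.4% to 33.7% of control counts to 1.31% to 3.24% at day 7. The ranges of the 2 groups lay far apart for both sets of genes.

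**Figure D1:**
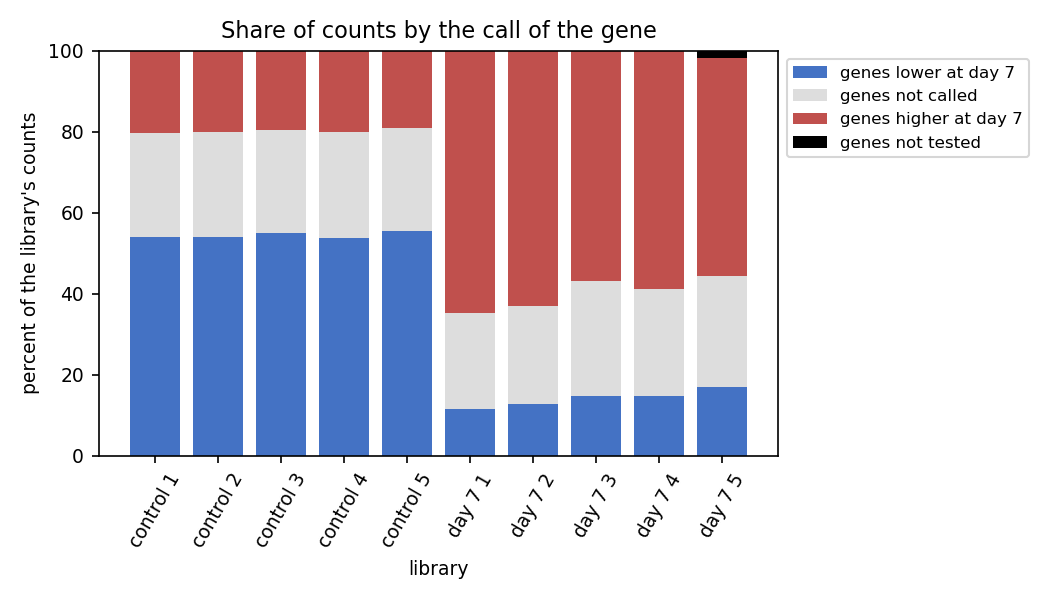
Percent of each library's counts (vertical axis) taken by genes called higher, called lower, not called and not tested, 1 bar per library (horizontal axis) for the 5 control and 5 delayed day 7 libraries. Genes called lower held 53.8% to 55.5% of every control library and 11.4% to 17.1% of every day 7 library.

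The most abundant genes of healthy nerve took a smaller share of counts at day 7. Of the 100 genes with the highest mean CPM in control nerve, 65 were called lower at day 7, 48 of them by at least 4-fold. Of the rest, 16 were called higher and 19 were not called, and the median log2 fold change of the 100 was -1.83. Together these 100 genes took 27.6% to 31.3% of control counts and 15.5% to 17.97% of day 7 counts.

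Of the 100 genes most abundant at day 7, 99 were among the genes tested. Of these 99, 77 were called higher than control, 45 of them by at least 4-fold, 9 were called lower and 13 were not called. They took 26.3% to 29.2% of day 7 counts and 13.6% to 14.5% of control counts. The lists of the 100 most abundant genes shared 36 genes, that is 36 of the 100 in each. Since abundance in 1 of the groups chose each list, its direction is partly fixed by that choice.

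Control counts were more concentrated on the very highest genes. The single highest gene of each library took 1.69% to 2.51% of counts at day 7 and 2.96% to 5.77% in control, and the 10 highest took 10.2% to 11.3% and 11.6% to 15.9%. The groups did not overlap on either measure, which is given as a description. Over longer lists the groups were closer. The 100 highest genes of each library, chosen within that library, held 29.5% of counts at day 7 and 29.2% in control (two-sided exact permutation test over libraries, p = 0.746, n = 5 each). The effective number of genes, a measure of evenness computed from the entropy of the count shares, was 2800 and 2842 (exact permutation p = 0.722). The day 7 tissue had fewer genes at 1 CPM or more, with a mean of 12826 (SD 512) against 13542 (SD 77.4), a difference of 716 genes (exact permutation p = 0.0159, 0.0476 after Benjamini-Hochberg adjustment over these 3 measures; the smallest p this design allows is 0.00794). By replicate the day 7 counts of such genes were 12091, 12594, 13100, 12909 and 13436, and the control libraries ranged from 13428 to 13639. Only replicate 5 overlapped with control. Without it the p was again 0.0159, then the smallest possible. Without control replicate 3 the exact permutation p was also 0.0159. It was 0.0317 without day 7 replicate 1, 2, 3 or 4, or without control replicate 1, 2, 4 or 5. These p-values with a library left out are not adjusted over the 3 measures, except that without replicate 5.

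Counting the libraries themselves shows how cleanly the groups separated. In 3504 genes every day 7 library lay above every control library (21.9% of the genes tested), and in 4325 every day 7 library lay below (27.0%). Of the genes called, 3481 rises (69.0% of them) and 4263 falls (81.0%) showed such a separation. The nearest libraries of the groups were at least 4-fold apart in 660 genes that were higher and 1014 that were lower, and at least 16-fold apart in 122 and 333. Without day 7 replicate 5, the gap of at least 16-fold was found in 196 and 557 genes, over 1.5 times as many in each direction. Leaving out any other library of the 10 kept these counts within 1.5 times.

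At the far end were genes read in 1 group and not at all in the other. In 20 genes every day 7 library had at least 10 counts and all 5 control libraries had 0. In 64 genes the reverse held. A count of 0 allows up to 3 counts over the 5 libraries of a group, so the 20 genes were at least 26.5-fold to at least 1706-fold higher at day 7, with a median bound of 91.3. The 64 genes were at least 28.0-fold to at least 7586-fold lower, with a median bound of 107. These bounds cover counting error only. With up to 3 counts allowed in each library of the absent group, the numbers were 91 and 232, and without day 7 replicate 5 they were 114 and 418.

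Genes lost at day 7 outnumbered genes gained, and replicate 5 held this number down. Without replicate 5 the genes read in all control libraries and in no day 7 library numbered 148 in place of 64, and the genes read only at day 7 numbered 26 in place of 20. Of the 148, 84 had at least 1 count in replicate 5, 36 had at least 10 and 13 had at least 100. In 6 of the 148 replicate 5 lay above every control library, and in 137 it lay below the lowest control library. No other library left out moved either count by over 1.5 times.

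The genes named by ID are the 2 largest rises and the 2 largest falls by a fixed rule: a mean level of 3 or more on the log2 CPM scale, an adjusted p under 0.05 and no overlap between the groups, ranked by the smaller of the changes with and without replicate 5. There were 2445 rises and 2524 falls to rank. The 10 top rises had log2 fold changes of 7.32 to 9.22 and the 10 top falls of -10.97 to -14.60. Since the rule chose these genes, their lack of overlap with control is given in advance, and their size partly so.

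The first rise was ENSRNOG00000013304. It read 3055, 666, 246, 1024 and 161 CPM in day 7 replicates 1 to 5, and 1.39, 2.12, 2.23, 1.80 and 1.05 CPM in control replicates 1 to 5. The lowest day 7 library, replicate 5, lay far above the highest control library, while the day 7 libraries varied widely among themselves. The means were 1030 ± 1184 and 1.72 ± 0.496 CPM (SD, n = 5 each). The log2 fold change was 9.22 with a standard error of 1.13 (edgeR adjusted p = 1.43e-07). Without replicate 5 it was 9.49 (edgeR adjusted p = 7.05e-08). Without replicate 1, the highest library, it was 8.24 (edgeR adjusted p = 2.37e-07), a fold 1.96 times smaller, and with voom and quality weights it was 8.34.

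The second rise was ENSRNOG00000056219, with 572, 173, 73.4, 144 and 66.8 CPM in day 7 replicates 1 to 5. In control replicates 1 to 5 it read 0.833, 0.686, 0, 0.346 and 0.324 CPM. The groups did not overlap, which the rule required. Day 7 replicate 1 stood above the other 4, the same library that was highest for the first rise. The log2 fold change was 8.81 with a standard error of 0.97 (edgeR adjusted p = 2.33e-08). Without replicate 1 it was 7.96 (edgeR adjusted p = 3.06e-08), a fold 1.80 times smaller.

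The first fall was ENSRNOG00000048139, which was read at 584, 497, 676, 489 and 552 CPM in control replicates 1 to 5. At day 7 it read 0 in replicates 1 to 4 and 0.0615 CPM in replicate 5. That is 1 read over all 5 day 7 libraries, against 38764 reads in control. The ratio of control to day 7 was 39690, with a 95% interval of 7124 to 1567680 that covers counting error only. The fitted log2 fold change was -14.60 with a standard error of 1.63 (edgeR adjusted p = 7.55e-08), a value that depends on the prior count because of the near absence of reads. It was -15.99 without replicate 5, when no reads were left at day 7, and -13.79 with voom (adjusted p = 0.0210).

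The second fall was ENSRNOG00000003171, the gene with the most counts in each of the 5 control libraries. It read 30309, 33358, 44491, 33549 and 64132 CPM in control replicates 1 to 5, and took 2.96% to 5.77% of their counts. In day 7 replicates 1 to 5 it read 0.375, 0.706, 6.62, 5.32 and 0.861 CPM. The single most abundant transcript of these nerves was thus close to absent at day 7 in every library, replicate 5 included. The log2 fold change was -13.84 with a standard error of 1.63 (edgeR adjusted p = 7.17e-08), and -14.44 without day 7 replicate 3, the highest of the 5.

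**Figure D2:**
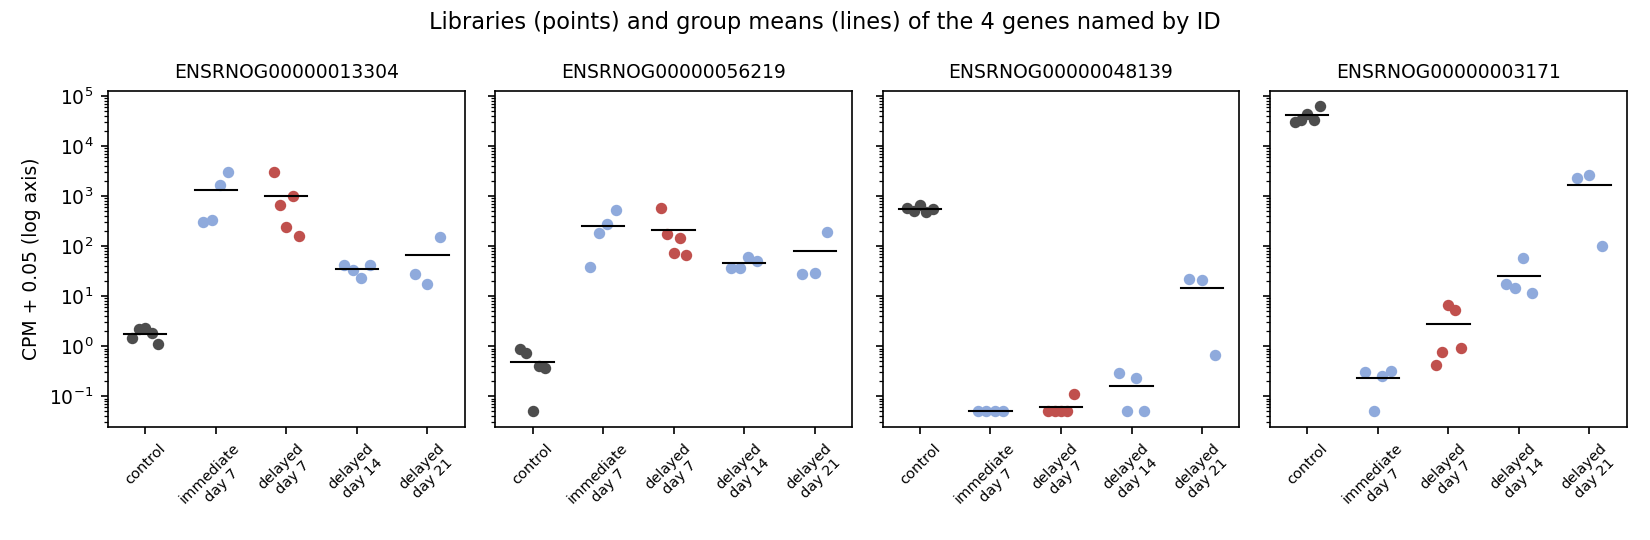
CPM plus 0.05 on a log axis (vertical) of the 4 genes named by ID in control nerve, immediate repair day 7 and delayed repair day 7, 14 and 21 (horizontal), with 1 point per library and a line at each group mean. The rule that chose the 4 genes required that the delayed day 7 libraries do not overlap with control. ENSRNOG00000003171 stood at 11.7 to 58.8 CPM in the delayed day 14 libraries.

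The 5 day 7 libraries differed more from each other than the control libraries did. The Pearson correlation of log2 CPM across genes ran from 0.836, between replicates 1 and 5, to 0.968, between replicates 3 and 4. Among control libraries it ran from 0.976 to 0.981. These correlations are across genes, which are not independent replicates. Between replicates 3 and 4, 427 genes were at least 4-fold apart, and between replicates 1 and 5, 2861, against 229 to 278 in any control pair. The median standard deviation of log2 CPM was 0.449 at day 7 and 0.225 in control, and it was larger at day 7 in 80.9% of genes. The biological coefficient of variation estimated by edgeR in each group was 60.7% at day 7, 46.3% at day 7 without replicate 5, and 20.5% in control. The main fit shares its estimate of the spread over all groups of the series, these unequal ones included. With the compared groups fitted alone, 8915 of 14335 genes tested were called.

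The libraries also stood at unequal distances from healthy nerve, mainly through the falls. In day 7 replicates 1 to 5, 1778, 1792, 1840, 1733 and 1701 genes lay at least 4-fold above the mean of the control libraries, nearly the same number in each. The genes at least 4-fold below it numbered 3334, 2933, 2348, 2395 and 1719. In single control libraries, each set against the mean of the other control libraries, the same counts were 41 to 66 above and 46 to 77 below. Across the called falls, the median log2 difference from control was -2.14, -1.86, -1.56, -1.57 and -1.22 in replicates 1 to 5. Across the called rises it was 1.28, 1.30, 1.31, 1.26 and 1.06. The order of the libraries in depth ran with this, replicate 1 being the shallowest and the farthest from control and replicate 5 the deepest and the nearest. The part of depth in these differences was not tested.

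**Figure D3:**
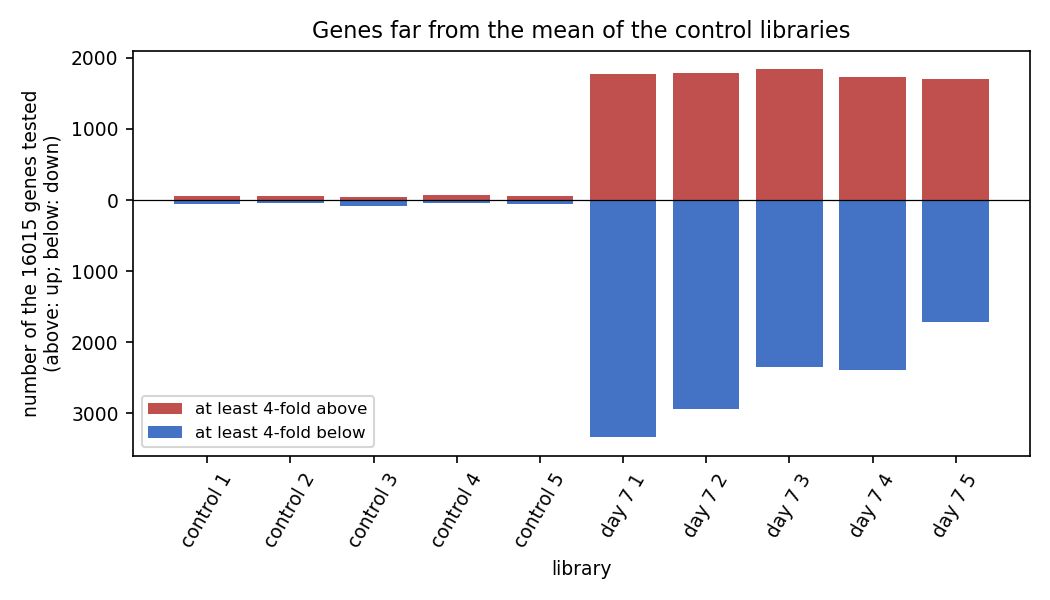
Number of the 16015 genes tested that lie at least 4-fold above (upward bars) or below (downward bars) the mean of the control libraries, for each of the 5 control and 5 delayed day 7 libraries (horizontal axis). Each control library is set against the mean of the other control libraries. The upward bars of the day 7 libraries stand between 1701 and 1840, while the downward bars range from 1719 in replicate 5 to 3334 in replicate 1.

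Replicate 5 stood apart in measured ways, and replicate 1 in some of them. Of the 10309 genes called, 1036 (10.0%) lay within the range of the control libraries in replicate 5, against 511 to 648 in each of the other 4. It had the highest value of the 5 in 42.4% of the falls and the lowest in 43.8% of the rises. Replicate 1 lay on the other side, lowest of the 5 in 39.8% of the falls and highest in 34.3% of the rises. The quality weights estimated by voom were similarly low in both, 0.293 for replicate 5 and 0.305 for replicate 1. Replicate 5 also carried 98 tested genes that stood above 5 CPM and above 10 times every other library of the 10. These 98 genes took 9.34% of its counts and at most 0.0570% of the counts of the other 9 libraries. Genes left out of the test, for counts in too few libraries, took a further 1.69% in replicate 5 and at most 0.0562% in the other 9. Of the 98, 79 were called higher at day 7 with replicate 5, and 15 higher and 41 lower without it. Of all 16015 genes tested, 5044 (31.5%) were called higher with it, and 4994 higher and 5557 lower without it. The 98 genes were chosen for standing high in replicate 5, so their shares and their calls with it follow partly from that choice. The same count for the other libraries is not given here. What these genes are could not be read from their IDs, and their source was not tested.

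The comparison was repeated without replicate 5. There were then 10551 genes called, 4994 higher and 5557 lower, and 9856 of these were called in the same direction with all 5 libraries. In 24 genes the direction turned, each higher with replicate 5 and lower without it. Calls that needed replicate 5 numbered 231 rises and 198 falls. Of the 231 rises, 161 had their highest value in that library. The median log2 difference of the 231 from control was 0.09, 0.22, 0.44 and 0.33 in replicates 1 to 4 and 1.65 in replicate 5.

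Without replicate 5, 466 more genes were called lower, and 440 of them had their highest value of the 5 in that library. Their median log2 difference was -1.94, -1.63, -1.10 and -1.03 in replicates 1 to 4 and 0.54 in replicate 5. Falls were also shallower with replicate 5 than without it: of the 2316 falls of at least 4-fold, 446 were at least 2-fold deeper without it. Falls of at least 4-fold numbered 2696 without replicate 5, and rises of at least 4-fold 1946. Without replicate 1, 2, 3 or 4 the falls of that size numbered 2168, 2206, 2364 and 2326, so replicates 1 and 2 pulled the other way. The median fall was -1.86 without replicate 5, in place of -1.71.

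**Figure D4:**
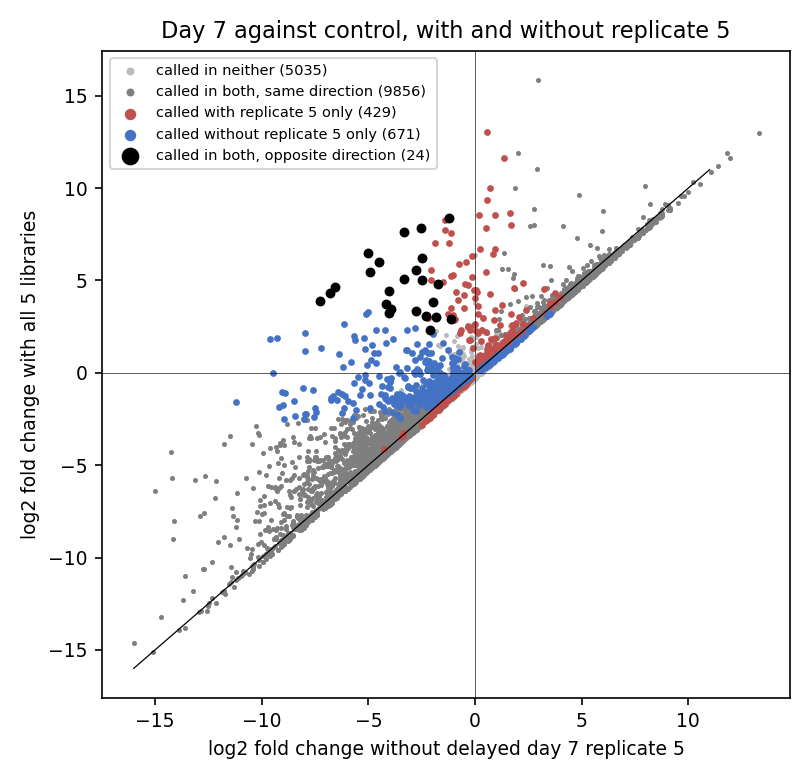
Log2 fold change of delayed day 7 against control with all 5 day 7 libraries (vertical axis) and without replicate 5 (horizontal axis), 1 point per gene tested, coloured by the calls in the 2 fits; the line marks equal values. The 231 rises called only with replicate 5 had a median of 1.08 with it and 0.34 without it, the 198 falls called only with it had -0.54 and -0.46, and the 466 falls called only without it had -0.42 and -1.58.

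Each day 7 library was also read against calls made without it. Of the genes called from the other 4 day 7 libraries and control, 94.2%, 97.4%, 97.2%, 96.5% and 91.8% differed from control in the same direction in the library left out, for replicates 1 to 5. Of the falls of at least 4-fold so called, 98.0%, 98.7%, 95.9% and 96.8% were at least 2-fold lower in replicates 1 to 4 when these were left out, and 80.6% in replicate 5. Among the rises the shares were 82.8%, 89.3%, 91.4%, 90.1% and 88.6%. The same control libraries made the calls and gave the differences, so these shares are a description of the left-out library.

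Over all 16 other analyses tried, which were 6 changes of method and 10 single libraries left out, 7974 genes (77.3% of those called) were called in the same direction each time. Of these 3848 rose, 1466 of them by at least 4-fold, and 4126 fell, 1977 of them by at least 4-fold.

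The delayed day 7 tissue was next set against immediate repair at the same day, which asks whether the 3 months without repair were visible at day 7. Since both share the control libraries, the direct test of one against the other was used. It called 114 genes (0.712% of those tested), 111 higher and 3 lower after delayed repair. Unadjusted p lay under 0.05 in 1352 genes. Of the 111, 33 were among the rises over control, 52 among the falls and 26 among the genes not called. Of the 3 that were lower, 1 was among the falls and 2 among the genes not called.

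These few calls rested on single libraries. Without delayed day 7 replicate 5, 1 gene was called. Without replicate 1, 2, 3 or 4 the number was 349, 318, 234 and 189. Without immediate day 7 replicate 1, 2, 3 or 4 it was 0, 3, 0 and 0. DESeq2 called 341 and a fit of the groups compared alone called 0. The 95% interval of the difference lay within 2-fold in 58.9% of genes, and for the rest the interval reached 2-fold or more. Genes unread in both groups count as within 2-fold here too. The level of the called groups was close in both repairs: the median log2 difference from control of the 2026 rises was 2.94 ± 0.116 (SD, n = 5) after delayed and 2.97 ± 0.108 (SD, n = 4) after immediate repair. For the 2316 falls it was -3.51 ± 0.691 and -3.89 ± 0.494. The genes were chosen on the delayed libraries and the control is shared, so these medians are a description.

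Of the 10 top rises 0 were called different between the repairs, and of the 10 top falls 0. ENSRNOG00000013304 had a log2 difference of -0.38 and a standard error of 0.83 (edgeR adjusted p = 1.0). In 2 of the 10 falls every delayed day 7 library lay above every immediate day 7 library. How many of all genes tested separate in this way was not counted, so the 2 are a description. One of them, ENSRNOG00000022707, had only 1 to 5 reads in each delayed day 7 library and 0 CPM in every immediate day 7 library. The other was ENSRNOG00000003171, at 0.375 to 6.62 CPM after delayed and 0 to 0.270 CPM after immediate repair. Its log2 difference was 3.87 with a standard error of 1.48 (edgeR adjusted p = 0.330), and DESeq2 called it (adjusted p = 0.0244).

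Between day 7 and day 14 of delayed repair many more genes differed. The test called 5557 genes (34.7% of those tested), 2661 higher and 2896 lower at day 7. Among the 5044 rises over control, 1857 (36.8%) were higher at day 7 than at day 14 and 151 were lower. Among the 5265 falls, 2031 (38.6%) were lower at day 7 and 183 were higher. Of the 2316 deepest falls, those of at least 4-fold, 1152 (49.7%) were lower at day 7 than at day 14, and of the 2026 rises of that size 796 (39.3%) were higher. The same day 7 libraries enter both comparisons, so part of this tendency comes with the choice of the genes. In a fit of the groups compared alone 3347 genes were called, 1560 higher and 1787 lower.

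At the level of whole groups, day 14 lay between day 7 and control. The genes called lower at day 7 took 23.1% ± 1.94 of counts at delayed day 14 (SD, n = 4), against 14.2% at delayed day 7 and 54.5% in control. The genes called higher took 41.4% ± 2.13 at day 14, against 59.5% and 19.8%. For the falls of at least 4-fold the median log2 difference from control was -2.11 ± 0.192 at day 14 (SD, n = 4) and -1.90 ± 0.393 at day 21 (SD, n = 3), against -3.51 at day 7. For the rises of at least 4-fold it was 2.38 ± 0.293 and 2.31 ± 0.199, against 2.94. These genes were chosen for their distance at day 7, which alone favours smaller distances at other days.

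Of the 10 top rises, 6 were higher at day 7 than at day 14, and of the 10 top falls, 5 were lower. Without delayed day 14 replicate 3 the falls so called numbered 3, and with voom 0. Over all genes tested, 16.6% were higher and 18.1% lower at day 7 than at day 14. The top genes were ranked on the same day 7 libraries, so their direction is partly fixed by that choice. ENSRNOG00000013304 read 22.7 to 41.2 CPM in the 4 delayed day 14 libraries, below every day 7 library, with a log2 difference of 4.90 and a standard error of 1.02 (edgeR adjusted p = 0.00107). Without day 7 replicate 1 it was 3.92, and with voom 3.91, both still called. ENSRNOG00000056219 read 35.8 to 61.3 CPM at day 14, with a log2 difference of 2.17 and a standard error of 0.74 (edgeR adjusted p = 0.0258). This call was lost without day 7 replicate 1, at 1.33 (edgeR adjusted p = 0.143), and without day 14 replicate 1, 2 or 4 (edgeR adjusted p = 0.0662, 0.0620 and 0.0523). ENSRNOG00000003171 read 17.8, 14.3, 58.8 and 11.7 CPM at day 14, above every day 7 library, and 101 to 2646 CPM at day 21. Its log2 difference between day 7 and day 14 was -3.19 with a standard error of 1.11 (edgeR adjusted p = 0.0282). This call was lost without day 14 replicate 3, at -2.38 (edgeR adjusted p = 0.121), without day 7 replicate 1, 2 or 5 (edgeR adjusted p = 0.0658, 0.0648 and 0.0512), and with voom (adjusted p = 0.459). ENSRNOG00000003171 had not returned to its control level of 30309 CPM or more in any delayed library to day 21. For ENSRNOG00000048139, absent or nearly so at day 7, the difference was -2.42 with a standard error of 2.82 (edgeR adjusted p = 0.533).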

How the data were processed

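The authors deposited 1 table of whole-number read counts, not normalized, with a column for each library. Per the labels' protocols, libraries were made without strand marking by poly(T) capture from 400 ng of RNA, whose integrity number was above 6, so a gene and an antisense or overlapping gene cannot be told apart. Tools named without role or order in the submitters' processing notes were DESeq2 1.38.3, featureCounts 1.5.0-p3 and HISAT2 2.0.5. Build and annotation were not given in the sources used here, nor is the treatment of reads shared by near-identical genes.

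Columns were assigned to samples through the library names in the labels, and 0 columns were left unused. All 30 libraries were fitted in 7 groups with edgeR 4.0.16 in R 4.3.3 (filterByExpr by group, TMM factors, robust quasi-likelihood test, Benjamini-Hochberg over 16015 genes, threshold 0.05). Of the genes listed, 8248 had 0 counts in every library. Distances, spreads and gaps of a stated fold used log2 CPM with a prior count of 2. Non-overlap of the groups used CPM without a prior count. The distance of a control library was taken from the mean of the other control libraries. Alternatives were DESeq2 1.42.0, voom with quality weights from limma 3.58.1, other scaling, no filter, a fit of the compared groups alone, a replicate block and each library left out. The scripts were tested on simulated data. Over 20 pairs of replicates, chi-square per degree of freedom was 14.9 or more, so the replicates differed beyond sampling noise.

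The comparison, the alternatives, the gene lists and the naming rule were chosen with earlier results of these data known. The rule asked for symbols, and the lists of cell type and pathway genes were by symbol. With no symbols the lists were not tested, and the rule was applied to IDs, printing 2 rises and 2 falls.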

Additional observations from a re-analysis of the deposited data

Results flagged for a closer look

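Among 29 groups of library values examined for 1 library far from its group, 4 held one. The groups share libraries and 1 of the 4 rests on a single read, so a chance rate of 1 in 20 groups need not hold here. Whether 4 is an excess was not tested. ENSRNOG00000056219 stood at 572 CPM in delayed day 7 replicate 1, far above the other 4 day 7 libraries. ENSRNOG00000048139 was read in delayed day 7 replicate 5, at 0.0615 CPM, and in no other day 7 library, which is a single read. Control replicate 3 had a median absolute log2 difference of 0.240 from the mean of the other control libraries. This was the highest of the control libraries, and well under the 0.76 of the nearest day 7 library. Delayed day 7 replicate 5 held 1036 called genes within the range of the control libraries.

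Differences from other groups were also found. Delayed repair differed from immediate repair at day 7 in 114 genes, a number that fell to 1 without delayed day 7 replicate 5. Delayed day 7 differed from delayed day 14 in 5557 genes. Among the genes named by ID, ENSRNOG00000013304 differed from day 14 by a log2 fold change of 4.90, ENSRNOG00000056219 by 2.17 and ENSRNOG00000003171 by -3.19. The last 2 of these calls were each lost with any of 4 single libraries left out.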

How the results depend on the processing

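Against control, the 10309 calls ranged from 8915 to 10788 over 6 changes of method and from 9863 to 10551 with a library left out, and the 4 genes named by ID stayed past the threshold in the same direction in all 16 of these. The share of rises among the calls lay between 46.8% and 51.7%. All of these fits scale the libraries on a similar premise, so this range is no separate test of the balance. The labels do not state that libraries of the same replicate number are paired. Same-numbered day 7 and control libraries had deviations correlated at -0.095 to 0.035. Of 5 day 7 libraries, 0 correlated best with their own number. So few libraries cannot exclude a pairing. With a replicate block, 10256 genes were called against control, 0 against immediate day 7 and 5751 against delayed day 14.

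Against immediate repair at day 7 the 114 calls became 341 with DESeq2, 0 with the compared groups alone, 7 without the filter, 15 with relative log expression factors, 0 with voom, and 0 to 349 with a library left out; the cause was not tested. Against delayed day 14 the 5557 calls (2661 higher, 2896 lower) became 3347 (1560 and 1787) with the compared groups alone, with fewer libraries in the fit. The difference in the share of the 100 highest genes ran from -0.12 to 0.91 percentage points with a library left out, turning to -0.017 without delayed day 7 replicate 1, -0.124 without replicate 5 and -0.036 without control replicate 2. The difference in the effective number of genes ran from -141 to 35.3, turning to 35.3 without delayed day 7 replicate 1 and 11.4 without control replicate 2. Neither difference passed its test with all libraries. The difference in genes at 1 CPM or more ran from -868.5 to -532.25 with a library left out. Its unadjusted exact permutation p was then 0.0159 or 0.0317. Depth and spread limit genes in the lowest of the 5 classes of level, where the median standard error was 0.76. Gene lists and cell type markers by symbol were not run, since no ID was paired with a symbol.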
